A study of Arabidopsis thaliana with 6 samples.

Results

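The genes described here encode the enzymes that take chlorophyll apart in the plastid, read in Arabidopsis seedlings that overexpress a grass NAC transcription factor and in wild type. They are 8 genes chosen by locus identifier, NYE1, NYE2, NYC1, NOL, PPH, PAO, ACD2 and HCAR, of 32962 in the deposited table, and all 8 were found. Messenger RNA was sequenced from seedlings aged 25 days, kept at 25 °C under a day of 16 h light and 8 h dark, with 3 libraries from the wild type accession Col-0 and 3 from EsANAC029-OE. EsANAC029-OE is an Arabidopsis line that overexpresses EsANAC029, a NAC factor from the forage grass Elymus sibiricus, and both groups share age, tissue and growth conditions. The labels name neither the promoter of the transgene nor the number of independent lines, nor whether plants were pooled or replicates grown apart, so p-values measure the spread between these libraries, which may be technical.

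Chlorophyll is broken down along an ordered pathway when leaves senesce, and also during turnover in green leaves. Chlorophyll b is first reduced to 7-hydroxymethyl chlorophyll a by NYC1 and its partner NOL, and HCAR reduces that intermediate to chlorophyll a. NYE1 and NYE2, also called SGR1 and SGR2, are the STAY-GREEN proteins, which remove the central magnesium of chlorophyll a to give pheophytin a, PPH removes the phytol tail, PAO opens the ring of pheophorbide a, and ACD2 reduces the red product to a colourless precursor. Later steps modify that product and move it to the vacuole, and plants without PAO or ACD2 accumulate phototoxic intermediates and form lesions.

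The libraries held 19608819 to 21715274 reads in genes, and values are FPKM, fragments per kilobase of gene length, scaled to an adjusted library size. The adjusted size was 0.872 to 0.920 times the reads in genes in Col-0 and 1.06 to 1.25 times in EsANAC029-OE. Scaling by library size alone, an alternative used below, leaves out that factor. The 5 green-leaf markers summed to 23615 to 28688 FPKM in Col-0 and to 2289, 8330 and 15186 FPKM in replicates 1, 2 and 3 of EsANAC029-OE. Of 7 root markers 6 were under 1 FPKM in every library, with CASP2, a protein of the root endodermis, at most 0.503 FPKM, so root tissue left little trace in these seedling libraries. The exception was PYK10, a root and hypocotyl glucosidase, at 104 FPKM in EsANAC029-OE replicate 2 and at most 6.91 FPKM elsewhere. Flower markers summed to at most 3.79 FPKM and seed markers to at most 0.0862 FPKM. EsANAC029-OE replicate 1 stood apart, with correlations of 0.691 to 0.734 with the Col-0 libraries against 0.857 to 0.899 for replicates 2 and 3. The 11 senescence markers summed to 248 to 323 FPKM in Col-0 and to 2324, 1083 and 799 FPKM in replicates 1, 2 and 3 of EsANAC029-OE. The part of leaf makeup or of that library in the results below was not tested, and in such bulk libraries fewer cells of a type and less RNA per cell cannot be told apart.

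Transcripts of the STAY-GREEN pair stood higher in all EsANAC029-OE libraries, those of NYC1, PPH and PAO were well above Col-0 in replicate 1 and near or below it in the others, and those of NOL, HCAR and ACD2 stood lower in all of them. In limma, with p-values adjusted by Benjamini and Hochberg and called under 0.05, NYE2 alone of the 8 genes rose and 0 fell. Of all 17221 tested genes 7.89% were called, 4.31% higher and 3.58% lower. By unadjusted p under 0.05 there were 4 of 8 (NYE1, NYE2, NOL and ACD2), against 28.3% of tested genes. The values of the groups did not overlap for 5 of 8, against 39.9% of tested genes, with EsANAC029-OE above for 2 (19.6% of tested genes) and below for 3 (20.3%).

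The sequences before the STAY-GREEN genes are shown because these genes have the largest fold changes of the 8 and their windows differ in the elements searched for. Both were read from the RefSeq assembly TAIR10.1, 5′ to 3′ on the gene's own strand, and end at the base before the annotated start. NYE1 lies on chromosome 4, 12016420 to 12018643 on the minus strand, with 4 coding exons, and its window is chr4:12018644-12018828, cut at 185 bases where the divergent gene PYR4 begins. NYE2 lies on chromosome 4, 7156150 to 7158047 on the plus strand, also with 4 coding exons, and its window is the 250 bases chr4:7155900-7156149.
NYE1: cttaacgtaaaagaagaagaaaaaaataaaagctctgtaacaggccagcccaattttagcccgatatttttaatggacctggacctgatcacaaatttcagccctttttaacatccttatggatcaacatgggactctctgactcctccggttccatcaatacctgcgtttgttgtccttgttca
NYE2: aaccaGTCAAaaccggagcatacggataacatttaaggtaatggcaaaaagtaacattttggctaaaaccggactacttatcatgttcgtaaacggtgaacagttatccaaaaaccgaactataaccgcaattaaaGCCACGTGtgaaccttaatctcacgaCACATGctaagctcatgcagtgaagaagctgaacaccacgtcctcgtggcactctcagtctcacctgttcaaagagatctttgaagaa
Capitals mark matches on either strand to the W-box TTGAC, the G-box CACGTG, the abscisic acid element core ACGTGGC and the PIF-type E-box CACATG. In NYE2 the G-box begins 112 bases before the start and overlaps an abscisic acid core on the other strand, the E-box begins at 88 bases and the W-box at 245 bases, while the 250 bases before NYE1, those in PYR4 included, hold none of these. In 250-base windows of 27419 protein-coding genes, 6.48% hold the G-box, 3.37% the abscisic acid core, 11.1% the E-box and 44.9% the W-box. Of the 8 genes, NYE2 and NOL hold a G-box, and in NOL it begins 21 bases before the start, between abscisic acid cores on both strands that overlap it. The window of NOL lies in the annotated neighbour AT5G04895. NYE2 stood higher and NOL lower in EsANAC029-OE. The short NAC core CACG was found before 5 of the 8 genes and before 45.6% of all genes. PAO is among them, and its start is overlapped by 11 bases of AT3G44870, an upstream neighbour on the same strand. NYE2 holds 5 matches, 2 of them within the G-box, and the 1 match of NYE1, at 216 bases, lies in PYR4 and outside the bases printed. The longer NAP-type element CACGTAA was found before none of the 8 and before 2.54% of all genes. These matches describe the letters only.

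NYE2 (AT4G11910), the STAY-GREEN paralogue that RefSeq notes as acting in opposition to NYE1, was at 0.344, 0.450 and 0.249 FPKM in the Col-0 libraries, from 9, 11 and 6 reads. It was at 51.1, 16.4 and 4.48 FPKM in replicates 1, 2 and 3 of EsANAC029-OE. Every overexpressor library lay above every Col-0 library, by 147-fold, 47.1-fold and 12.9-fold over the Col-0 mean. The means were 0.348 ± 0.101 and 24.0 ± 24.2 FPKM (SD, n = 3 each), with a log2 fold change of 3.66 on the log2(FPKM + 1) scale (SE 0.763, 95% interval 1.82 to 5.51, limma adjusted p = 0.0411). A gene this low in Col-0 passed the filter of 1 FPKM in 3 libraries only through EsANAC029-OE, so among tested genes it had to differ. The call was lost without Col-0 replicate 1, 2 or 3 (adjusted p = 0.136 to 0.154), fits in which 0.813%, 0.947% and 0.383% of tested genes were called. It was also lost without EsANAC029-OE replicate 2 (adjusted p = 0.102, with 2.41% called), while without replicate 1 it held at a log2 fold change of 2.86 (adjusted p = 0.0178).

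NYE1 (AT4G22920), the main magnesium dechelatase of leaf senescence, was at 4.31, 5.53 and 6.15 FPKM in Col-0 against 69.8, 26.4 and 10.99 FPKM in replicates 1, 2 and 3 of EsANAC029-OE. The groups did not overlap, and the lowest overexpressor library was 2.06-fold over the Col-0 mean. The log2 fold change was 2.18 (SE 0.612, 95% interval 0.71 to 3.66), which did not pass the test (limma adjusted p = 0.0797). Without EsANAC029-OE replicate 1 it was 1.53 and passed (adjusted p = 0.0412, where 17.8% of tested genes were called), and without replicate 3 it was 2.81 and passed (adjusted p = 0.0330, with 8.24% called). It did not pass without Col-0 replicate 1, 2 or 3 (limma adjusted p = 0.211 to 0.220) or without EsANAC029-OE replicate 2 (limma adjusted p = 0.152).

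The ratio of the STAY-GREEN pair within a library does not depend on the scaling between libraries. NYE1 exceeded NYE2 by 12.5, 12.3 and 24.7 times in Col-0 and by 1.37, 1.61 and 2.46 times in EsANAC029-OE replicates 1, 2 and 3, ratios of FPKM that do not overlap. The difference in the log2 ratio was −3.15 (exact permutation p = 0.1, two-sided, the smallest that 3 libraries against 3 allow, adjusted p = 0.3 over 3 ratios), which did not pass. The Col-0 ratios rest on the 6 to 11 reads of NYE2, and with 1 FPKM added to both genes the difference was −1.48. The coding sequences of the pair are 80.1% identical over 782 aligned bases, with the longest identical run at 28 bases.

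**Figure D1:**
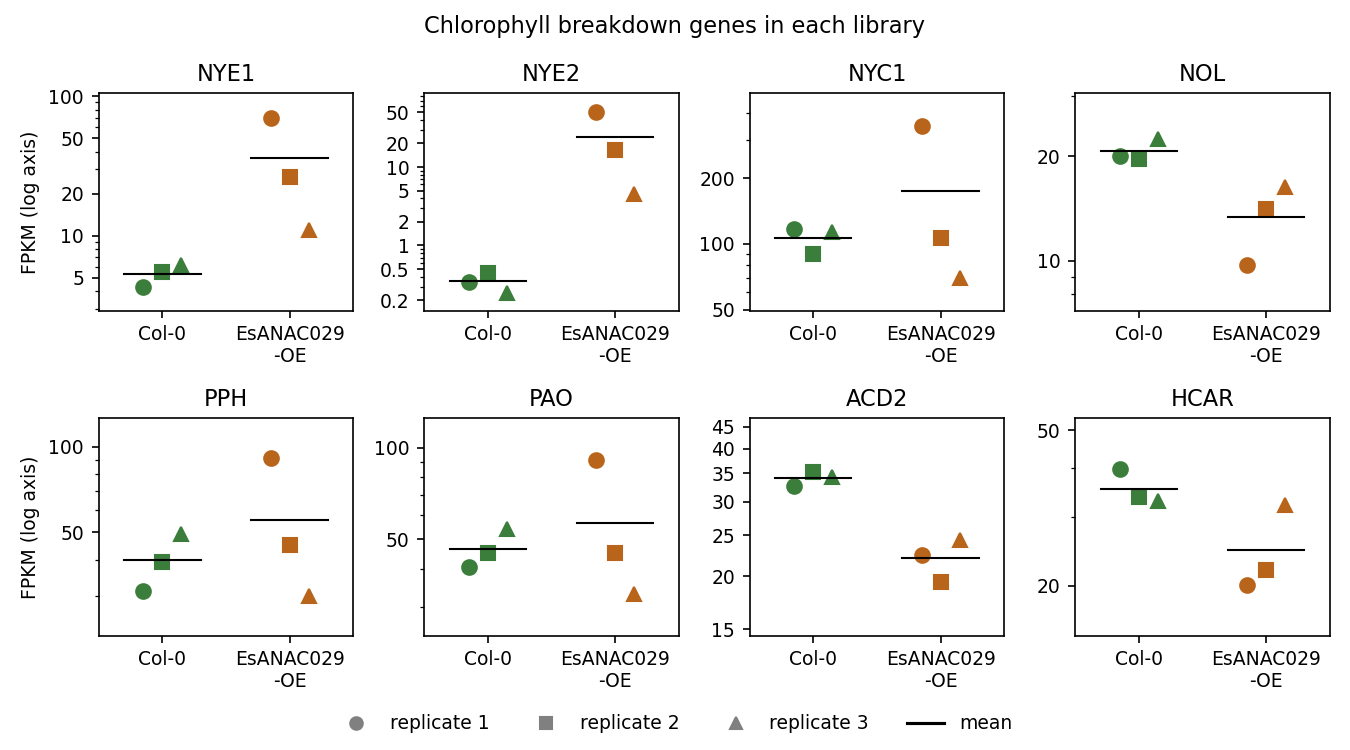
FPKM of the 8 genes in each library, on log axes that differ between panels, with Col-0 in green, EsANAC029-OE in orange, a symbol per replicate and a bar at the mean. NYE1 and NYE2 lie above Col-0 in all 3 overexpressor libraries, NYC1, PPH and PAO do so clearly only in replicate 1, and NOL, ACD2 and HCAR lie below.

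NYC1 (AT4G13250, chromosome 4, 7684156 to 7687006, 10 coding exons), the membrane-bound chlorophyll b reductase, was the most abundant of the 8 per length. It was at 117, 89.95 and 114 FPKM in Col-0 against 347, 107 and 69.5 FPKM in replicates 1, 2 and 3 of EsANAC029-OE. Only replicate 1 lay above Col-0, by 3.25-fold over its mean, and replicate 3 lay below all Col-0 libraries. Its log2 fold change of 0.37 did not pass (SE 0.579, 95% interval −1.03 to 1.77, limma adjusted p = 0.712), and without replicate 1 it turned to −0.30 (adjusted p = 0.399).

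NOL (AT5G04900, chromosome 5, 1434774 to 1437495, 13 coding exons), the other chlorophyll b reductase, went the other way. It was at 20.03, 19.7 and 22.4 FPKM in Col-0 against 9.70, 14.1 and 16.3 FPKM in replicates 1, 2 and 3 of EsANAC029-OE, lowest in the library where NYC1 was highest. The groups did not overlap, and the log2 fold change of −0.62 did not pass the test (SE 0.215, 95% interval −1.14 to −0.10, limma adjusted p = 0.125). The ratio of NYC1 to NOL was 5.83, 4.56 and 5.07 in Col-0 and 35.8, 7.54 and 4.25 in EsANAC029-OE replicates 1, 2 and 3. These ratios overlap between groups (difference in log2 ratio 1.03, exact permutation p = 0.4, two-sided, adjusted p = 0.4), and the difference was 0.14 without EsANAC029-OE replicate 1 and 1.68 without replicate 3.

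HCAR (AT1G04620, chromosome 1, 1282163 to 1286619, 19 coding exons), the 7-hydroxymethyl chlorophyll a reductase that completes the turn from chlorophyll b to a, was at 39.9, 33.7 and 32.9 FPKM in Col-0. It was at 20.1, 22.0 and 32.2 FPKM in replicates 1, 2 and 3 of EsANAC029-OE. The groups did not overlap, though replicate 3 lay just under the lowest Col-0 library. Its log2 fold change of −0.53 did not pass (SE 0.218, limma adjusted p = 0.176).

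CAO, the oxygenase that makes chlorophyll b and so runs against NYC1 and NOL, was at 37.3, 44.3 and 48.7 FPKM in Col-0 against 18.4, 18.5 and 27.7 FPKM in EsANAC029-OE. It fell by 1.00 on the log2 scale (SE 0.218, limma adjusted p = 0.0456), a call lost without any 1 Col-0 library and without EsANAC029-OE replicate 2. The call was also lost with scaling by library size alone, with no filter on low values, by voom on recovered reads and with a replicate block. The ratio of NYC1 to CAO was 3.13, 2.03 and 2.34 in Col-0 and 18.9, 5.78 and 2.51 in EsANAC029-OE replicates 1, 2 and 3. Replicate 3 lay within the Col-0 range, and the difference in log2 ratio was 1.403 (exact permutation p = 0.2, two-sided, adjusted p = 0.3). It was 0.63 without EsANAC029-OE replicate 1.

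**Figure D2:**
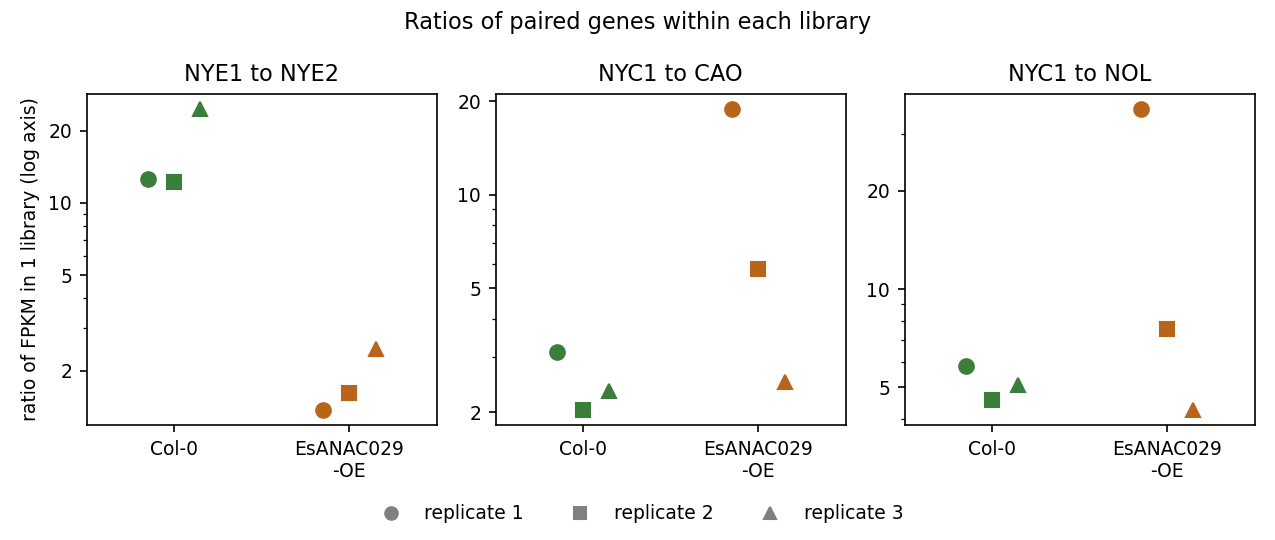
Ratios of FPKM between gene pairs within each library, on log axes, with Col-0 in green, EsANAC029-OE in orange and a symbol per replicate. The ratio of NYE1 to NYE2 separates the groups, from 12.3 or more in Col-0 to 2.46 or less in EsANAC029-OE, while the ratios of NYC1 to CAO and of NYC1 to NOL are highest in EsANAC029-OE replicate 1 and overlap between the groups.

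PPH (AT5G13800, chromosome 5, 4451733 to 4454813, 6 coding exons), the pheophytinase that cuts off the phytol tail, was at 31.0, 39.4 and 49.4 FPKM in Col-0. It was at 91.4, 45.0 and 29.8 FPKM in replicates 1, 2 and 3 of EsANAC029-OE. Replicate 1 lay above all Col-0 libraries, replicate 2 among them and replicate 3 below them, with a log2 fold change of 0.34 (SE 0.420, 95% interval −0.68 to 1.35, limma adjusted p = 0.636). PAO (AT3G44880, chromosome 3, 16383595 to 16386344, 7 coding exons), the oxygenase whose ring opening ends the green colour, was at 40.6, 45.1 and 54.1 FPKM in Col-0. It was at 91.3, 45.2 and 33.0 FPKM in replicates 1, 2 and 3 of EsANAC029-OE, the same layout as PPH (log2 fold change 0.15, SE 0.377, 95% interval −0.76 to 1.06, limma adjusted p = 0.821). Without replicate 1 the log2 fold changes of PPH and PAO turned to −0.10 and −0.25 (adjusted p = 0.820 and 0.396).

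PPH and PAO were closer to each other than any other pair of the 8. Their profiles of log2(FPKM + 1) over the 6 libraries, each set to its Col-0 mean, differed by 0.157 in root mean square, and 13 tested genes lay closer to PPH than PAO did and 50 closer to PAO than PPH did. PAO overlaps its upstream neighbour AT3G44870, a gene at no more than 1.54 FPKM, by 11 bases on the same strand.

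ACD2 (AT4G37000, chromosome 4, 17442612 to 17444295, 2 coding exons), the red chlorophyll catabolite reductase that follows PAO, was at 32.7, 35.2 and 34.3 FPKM in Col-0 against 22.5, 19.4 and 24.3 FPKM in replicates 1, 2 and 3 of EsANAC029-OE. The groups did not overlap. The means were 34.1 ± 1.28 and 22.1 ± 2.47 FPKM (SD, n = 3 each), and the log2 fold change of −0.61 did not pass the test (SE 0.152, 95% interval −0.98 to −0.24, limma adjusted p = 0.0620). Without replicate 1 it was −0.63 and passed (adjusted p = 0.0354, in the fit that called 17.8% of tested genes), and in the other 5 fits without 1 library it did not (adjusted p = 0.0690 to 0.221). ACD2 shares 167 bases on the same strand with CEN2, a gene of up to 30.1 FPKM, and how such reads were assigned is not given in the sources used here.

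Levels per length in Col-0 ran from NYC1 (107 ± 14.6 FPKM) through PAO (46.6 ± 6.91), PPH (39.9 ± 9.20), HCAR (35.5 ± 3.85), ACD2 (34.1 ± 1.28) and NOL (20.7 ± 1.49) to NYE1 (5.33 ± 0.933) and NYE2 (0.348 ± 0.101 FPKM, mean ± SD, n = 3). Neighbours from PAO to ACD2 in that order overlapped in their library values, and the other steps did not. In EsANAC029-OE replicate 1 both STAY-GREEN genes, at 69.8 and 51.1 FPKM, stood above ACD2, HCAR and NOL, which they were far below in Col-0. In replicate 3, at 10.99 and 4.48 FPKM, they were still the least abundant of the 8.

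The overexpressor libraries spread more than the Col-0 libraries for all 8 genes, as they did over tested genes at large, with median ranges of 0.734 and 0.293 on the log2(FPKM + 1) scale. The range in EsANAC029-OE was 3.25 for NYE2, 2.56 for NYE1, 2.31 for NYC1, 1.58 for PPH and 1.44 for PAO, and 2.15% of tested genes had a range as wide as that of NYE2. ACD2 was the most even, with a range of 0.310, and 84.4% of tested genes had a wider or equal one. In order from high to low, 5 of the 8 (NYE1, NYE2, NYC1, PPH and PAO) ran replicate 1, 2, 3, as did 20.5% of tested genes, and NOL and HCAR ran 3, 2, 1, as did 21.0%. The senescence marker sums given above ran in the order of the former and the green-leaf marker sums in that of the latter.

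**Figure D3:**
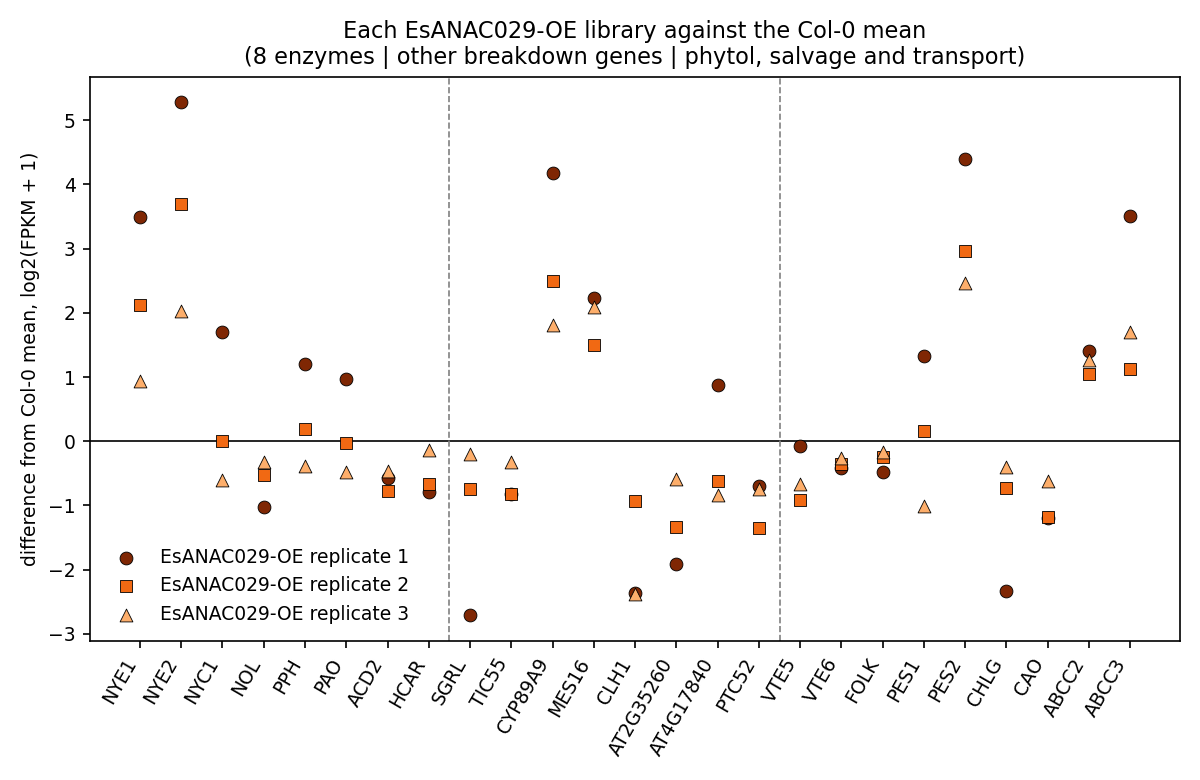
Difference of each EsANAC029-OE library from the Col-0 mean, on the log2(FPKM + 1) scale, for the 8 enzymes and 17 tested pathway genes, with a symbol per replicate. The differences of NYE2 run from 2.03 to 5.27 and those of NYE1 from 0.93 to 3.49, NYC1, PPH and PAO straddle 0, and CYP89A9, MES16, PES2 and the ABCC genes lie above 0 in all 3 libraries.

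Other genes of the pathway were 18 in number, of which 17 were tested, and 4 rose and 1 (CAO, above) fell by limma, where 4.31% of all tested genes were called higher and 3.58% lower. Their median log2 fold change was −0.34 against −0.00914 over all tested genes. Those that rose act on or move products after the ring is opened or handle freed phytol, but other genes with such roles were not called. ACD2 and TIC55 lay lower and ABCC3 higher in all EsANAC029-OE libraries. The phytol and prenol genes VTE5, VTE6, FOLK and PES1 had log2 fold changes of −0.55, −0.34, −0.29 and 0.16. MES16, the cytosolic methylesterase of the colourless catabolites, was at 3.92, 3.20 and 5.14 FPKM in Col-0 against 22.5, 13.2 and 20.4 FPKM in EsANAC029-OE (log2 fold change 1.94, SE 0.256, adjusted p = 0.0162). CYP89A9, the cytochrome P450 that turns these catabolites into a dioxobilin type, was at 6.58, 9.87 and 10.7 FPKM in Col-0 against 178, 54.9 and 33.5 FPKM in EsANAC029-OE (log2 fold change 2.83, SE 0.596, adjusted p = 0.0424). ABCC2, a vacuolar transporter that carries such catabolites, was at 5.47, 5.42 and 5.29 FPKM in Col-0 against 15.9, 12.2 and 14.4 FPKM in EsANAC029-OE (log2 fold change 1.24, SE 0.160, adjusted p = 0.0155). The overexpressor libraries ranged over 0.724 for MES16 and 0.359 for ABCC2 on the log2(FPKM + 1) scale, less than for NYE1 and NYE2. PES2, a plastid acyltransferase that esterifies phytol, was at 2.76, 7.76 and 11.3 FPKM in Col-0 against 155, 56.6 and 39.9 FPKM in EsANAC029-OE (log2 fold change 3.27, SE 0.628, adjusted p = 0.0342). Each of these 4 calls was lost without any 1 Col-0 library, those of CYP89A9 and PES2 also without EsANAC029-OE replicate 2, and all 4 held without EsANAC029-OE replicate 1, at log2 fold changes of 1.79 for MES16, 2.15 for CYP89A9, 1.16 for ABCC2 and 2.71 for PES2.

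The remaining pathway genes did not pass the test. SGRL, the STAY-GREEN-like relative expressed in green tissue, was at 34.3, 38.9 and 41.0 FPKM in Col-0 against 4.98, 22.3 and 33.1 FPKM in EsANAC029-OE (log2 fold change −1.21, adjusted p = 0.258), so it lay below Col-0 where NYE1 and NYE2 lay above. Without EsANAC029-OE replicate 1 it was −0.47. TIC55, which hydroxylates a colourless catabolite at the envelope, had a log2 fold change of −0.66 (adjusted p = 0.0979), and PTC52, of the same oxygenase family as PAO, one of −0.93 (adjusted p = 0.0588). CLH1, a chlorophyllase, varied from 39.7 to 172 FPKM within Col-0 and was at 15.9 to 45.3 FPKM in EsANAC029-OE (adjusted p = 0.117). CLH2, the other chlorophyllase, was at no more than 1.11 FPKM and was not tested.

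AT2G35260, annotated in the table as a CPBP-type membrane protease, was at 137 to 155 FPKM in Col-0 against 37.6, 57.0 and 95.4 FPKM in EsANAC029-OE (log2 fold change −1.28, adjusted p = 0.0717). Its relative AT4G17840 was at 17.7 to 25.6 FPKM and at 40.4, 13.7 and 11.7 FPKM (adjusted p = 0.812). ABCC3, the other transporter, was at 9.04 to 20.5 FPKM in Col-0 against 150, 28.0 and 42.1 FPKM in EsANAC029-OE, above Col-0 in all 3 libraries (log2 fold change 2.11, adjusted p = 0.0980). PES1, the relative of PES2, overlapped between groups (log2 fold change 0.16, 95% interval −1.19 to 1.51). The phytol and prenol kinases VTE5, VTE6 and FOLK had log2 fold changes of −0.55, −0.34 and −0.29, and CHLG, the chlorophyll synthase that can reuse the freed ring, one of −1.15 (adjusted p = 0.203 to 0.262 for VTE5, VTE6 and FOLK and 0.194 for CHLG). Without EsANAC029-OE replicate 1 PES1 turned to −0.43 and CHLG was −0.57, while VTE5, PTC52, AT2G35260 and AT4G17840 were then called lower.

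**Figure D4:**
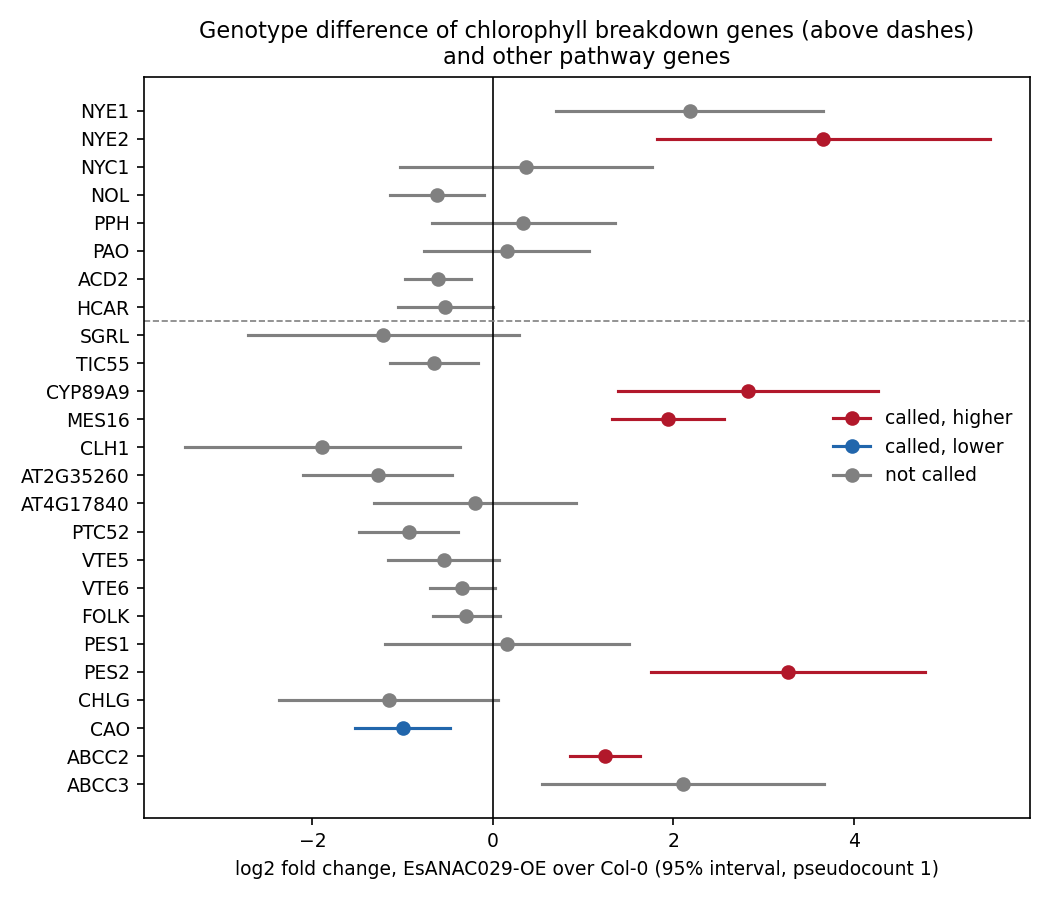
Log2 fold change of EsANAC029-OE over Col-0 with its 95% interval on the log2(FPKM + 1) scale, for the 8 enzymes above the dashed line and 17 pathway genes below it. Called genes are red where higher (NYE2, CYP89A9, MES16, PES2, ABCC2) and blue where lower (CAO), and the intervals of NYC1, PPH and PAO span 0.

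Among 26 transcription factors listed here as regulators of chlorophyll breakdown 23 were tested, with a median log2 fold change of 0.27. Of these, 2 rose (ANAC016 and JUB1) and 2 fell (PIF4 and PIF5), against the same 4.31% and 3.58% of all tested genes. NAP (also called ANAC029), ANAC092 (also called ORE1) and ANAC046 are senescence NAC factors that activate breakdown genes. Whether reads of the EsANAC029 transgene were counted under NAP was not tested. ANAC092 was at 1.03, 0.531 and 2.69 FPKM in Col-0 against 41.3, 12.3 and 2.88 FPKM in replicates 1, 2 and 3 of EsANAC029-OE (log2 fold change 2.53, adjusted p = 0.121). NAP was at 2.28, 2.40 and 3.90 FPKM in Col-0 against 88.6, 21.5 and 5.35 FPKM (limma adjusted p = 0.123). ANAC046 was at 1.84, 4.21 and 1.42 FPKM against 20.5, 8.05 and 6.69 FPKM (limma adjusted p = 0.0709). These genes ran in the same order as NYE1 and NYE2. So did ANAC019, ANAC055, ANAC072, ANAC002 and ANAC032, which overlapped between groups and were not called (log2 fold changes 1.37, 0.75, −0.40, 0.62 and 0.29). In each of the latter replicate 3 lay below the Col-0 mean. ANAC016, an activator of senescence that acts through NAP, was at 0.978, 0.465 and 0.353 FPKM in Col-0 against 17.8, 4.95 and 6.73 FPKM in EsANAC029-OE (log2 fold change 2.59, adjusted p = 0.0281). JUB1, a NAC factor that delays senescence, rose by 2.61 on the log2 scale (adjusted p = 0.0471). ANAC016 and JUB1, like NYE2, passed the filter only through EsANAC029-OE.

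PIF5, a bHLH factor that promotes dark-induced chlorophyll loss, was at 45.5, 60.3 and 49.7 FPKM in Col-0 against 22.9, 9.95 and 14.3 FPKM in EsANAC029-OE (log2 fold change −1.73, SE 0.305, adjusted p = 0.0297), opposite in sign to NYE1 and NYE2. PIF4, its relative, had a log2 fold change of −1.87 (adjusted p = 0.00605), which held in 5 of the 6 fits with 1 library left out and was lost without Col-0 replicate 3. The other 3 calls were each lost without any 1 Col-0 library, and that of JUB1 also without EsANAC029-OE replicate 2 and that of PIF5 without replicate 2 or 3. EIN3, the ethylene factor that binds breakdown gene promoters, was at 99.7 ± 0.429 and 100.97 ± 30.9 FPKM (SD, n = 3 each, log2 fold change −0.02, 95% interval −0.61 to 0.56). ABI5, an abscisic acid factor, was at 0.432 to 0.475 FPKM in Col-0 and 0.589 to 1.69 FPKM in EsANAC029-OE and was not tested. MYC2 is listed at 0 in every library and gives no level.

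On the side of chlorophyll making, 3 of 23 tested genes fell, HEMA1, CHLH and CAO, against 3.58% of all tested genes. Without 1 library 0 to 7 were called by limma, 0 of them without any 1 Col-0 library or EsANAC029-OE replicate 2. The medians of that list against the Col-0 mean were −2.33, −0.72 and −0.42 on the log2 scale in EsANAC029-OE replicates 1, 2 and 3. Those of the 8 breakdown genes were 1.08, −0.01 and −0.35. Of the antenna genes, whose proteins hold most chlorophyll b, 7 of 17 tested fell, against the same 3.58%, and all 17 had a log2 fold change below 0. Between 0 and 15 were called on leaving out 1 library, with 0 or 1 without any 1 Col-0 library or EsANAC029-OE replicate 2, 12 without replicate 3 and 15 without replicate 1. Of the senescence markers 3 of 8 tested rose, SAG13, SAG21 and WRKY53, against 4.31% of all tested genes. The log2 fold change was above 0 for 7 of the 8 and below 0 for 1, and 0 to 6 were called on leaving out 1 library.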

How the data were processed

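RNA of 6 libraries was measured, 3 per group. The deposited table holds FPKM values. Its header names no unit, and each value times gene length is a whole multiple of 1 step per library (within 1e-06), from which reads were recovered. Per the submitters' processing notes the tools were CASAVA 1.8, HISAT2 and edgeR with TAIR10, in roles not stated. The design allowed for counts or normalized values, and the FPKM test was used: limma 3.58.1 (R 4.3.3), with trend, on log2(FPKM + 1), for the 17221 genes that reached 1 FPKM in 3 or more libraries, two-sided, Benjamini-Hochberg adjusted over all of them and called under 0.05. Fold changes on this scale understate low genes. Ratios used exact permutation tests. The fit was tested on simulated data with the same dispersion in both groups, so that test does not cover the wider spread of the EsANAC029-OE libraries. Fits without 1 library kept the genes tested with all 6.

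Of the loci 32548 matched TAIR10.1 of RefSeq, 32532 with identical coordinates, and 129 carry no name. All 8 genes and every gene of 2 further pathway lists are named, with chosen and called regulators. These members and lists were chosen with earlier results of these data known. Alternatives were another pseudocount, other filters and thresholds, library-size scaling, library weights, voom, a replicate block and leaving out each library.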

Additional observations from a re-analysis of the deposited data

How the results depend on the processing

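NYE2 and NYE1 stayed higher, and NOL, ACD2 and HCAR lower, in EsANAC029-OE under every alternative that gave them a value, but few calls were stable. With scaling by library size alone the latter shrank to −0.27, −0.26 and −0.17. The log2 fold change of NYE2 lost its call with no filter on low values (3.66) and by voom on recovered reads (5.44), and it was not tested at a filter of 5 FPKM. NYE1 was called with scaling by library size alone (2.52) and with library weights (1.502), as was ACD2 with weights (−0.60). With weights NYC1, PPH and PAO turned to −0.22, −0.10 and −0.24. Leaving out 1 library gave 1.53 to 2.81 for NYE1, 2.86 to 4.48 for NYE2, −0.30 to 0.85 for NYC1, −0.10 to 0.70 for PPH, −0.25 to 0.47 for PAO and −0.68 to −0.53 for ACD2. Of the 8 genes limma called 2 by library size alone, 3 with weights, 0 to 3 without 1 library, and 0 with no filter, at 5 FPKM, by voom or at adjusted p under 0.01, against 4 at an unadjusted p under 0.05. Of the 18 other pathway genes (5 called), 1 was called with no filter, 8 with weights, 0 at adjusted p under 0.01 and 0 to 9 without 1 library. Of the antenna genes (7 called), 14 were called at 5 FPKM, 15 with weights and 0 with no filter, and of the regulators (4 called) 7 by library size alone and 1 with no filter. Over all genes (1359 called) there were 3126 by library size alone, 248 with no filter, 821 by voom, 2973 with weights, 117 at adjusted p under 0.01 and 66 to 3073 without 1 library. Library size alone moved the median of all genes to 0.31 and the split to 2749 higher and 377 lower. Causes were not tested.

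Deviations of same-numbered libraries from their group means had correlations of −0.199, −0.0531 and −0.105. Those of libraries with different numbers ran from −0.318 to 0.360. With 3 libraries per group such values cannot decide whether the numbers pair the libraries. With a replicate block NYE2 kept 3.66 with adjusted p = 0.0868, and 0 of the 8 genes, 0 of the 18 and 16 of all genes were called.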

Other observations

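Among tested genes with a symbol, the profile over the 6 libraries, each gene set to its Col-0 mean on the log2(FPKM + 1) scale, gave each enzyme its nearest genes by root mean square difference. NYE1 lay nearest to IRX7 (0.176), APA3 (0.187) and TIC20-IV (0.196). The nearest to NYE2 were SIRK (0.225), ATMYB2 (0.319) and NPF5.2 (0.377). The difference is not scaled to the size of a gene's change, which was largest for NYE2 among the 8. The nearest to NOL were TIC22 (0.0544), a plastid protein import component, DJ1D (0.0597) and CLPT2 (0.0731), part of the plastid Clp protease. NYC1 was nearest to IP5P10 (0.0907), PPH to DRP1B and then CK1 (0.135 for the latter), PAO to PVA41 (0.0684), ACD2 to PLDGAMMA2 (0.0206) and HCAR to CLV1 (0.0187). These are descriptions over 6 libraries that share 2 groups. Among the 8 enzymes NOL and HCAR differed by 0.184, and 394 tested genes lay closer to NOL than HCAR did.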
